A study of Danio rerio with 15 samples.

Results

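The caudal fin of AB WT zebrafish, the wild-type AB laboratory strain, was sampled at 3 positions along its proximodistal axis: distal, middle and proximal. Each position had 5 biological replicates, and each replicate pooled the same fin region of 2 male and 2 female fish. The labels name no treatment and no age for any of the 15 samples. Ribosomal RNA was removed from total RNA, and the libraries were read from both ends over 50 bases. The genes described here are 10 transcriptional targets and feedback inhibitors of fibroblast growth factor (FGF) signalling, *etv4*, *etv5a*, *etv5b*, *il17rd*, *spry1*, *spry2*, *spry4*, *spred1*, *spred2a* and *dusp6*. They were taken by symbol from the 3 pairwise tables of the series, where all 10 were found among 23926 gene IDs.

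FGF ligands bind receptor tyrosine kinases, which signal through adaptors to Ras and the MAP kinase ERK. Active ERK induces a set of genes that are widely used as a transcriptional readout of the pathway, among them the ETS transcription factors *etv4* and *etv5*. Several other induced genes act back on the pathway: Il17rd (also called Sef) at the membrane, Sprouty and Spred proteins around the receptor and Ras, and the phosphatase Dusp6 on ERK itself. In the zebrafish caudal fin, FGF signalling is best known for its requirement in regeneration after amputation. The fins here are labelled by position only.

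Of the 10 genes, 7 were higher in distal than in proximal fin: *etv4*, *il17rd*, *etv5b*, *spry4*, *dusp6*, *etv5a* and *spry2*. The authors' deposited table gave folds between 5.50 (*etv4*) and 1.33 (*spry2*). *spry1*, *spred1* and *spred2a* did not pass the test, which was an adjusted p (Benjamini-Hochberg over the whole table) under 0.05 in the authors' DESeq comparison. Among all 23404 genes tested between these positions, 36.0% were called, 17.9% higher and 18.1% lower. Between distal and middle fin 7 members were called, all higher in distal, with *spry1* called there and *spry2* not. The call of *spry1* rests on few reads and overlapping libraries. Of all genes 26.2% were called between these positions, 13.3% higher and 12.9% lower. Between middle and proximal fin 1 member was called, *il17rd*, which was higher in middle, against 7.31% of all genes called, 3.51% higher and 3.80% lower. The comparisons share samples at each position, so these counts are not independent of each other.

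The values per library below are normalized counts, that is, read counts divided by a size factor for each library, recovered from the deposited means of each position. They compare 1 gene between positions and are not adjusted for gene length. Libraries are numbered 1 to 5 within a position by ascending size factor, an order that says nothing of the replicate numbers in the labels. The normalized counts of a position summed to 17689263 in distal, 17881320 in middle and 18525756 in proximal fin. Over the genes with a unique recovery, the libraries held 9772664 to 12406914 reads in distal, 11782001 to 13214947 in middle and 11445815 to 12083828 in proximal fin. In bulk tissue, fewer cells of a type and less RNA per cell cannot be told apart.

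**Figure D1:**
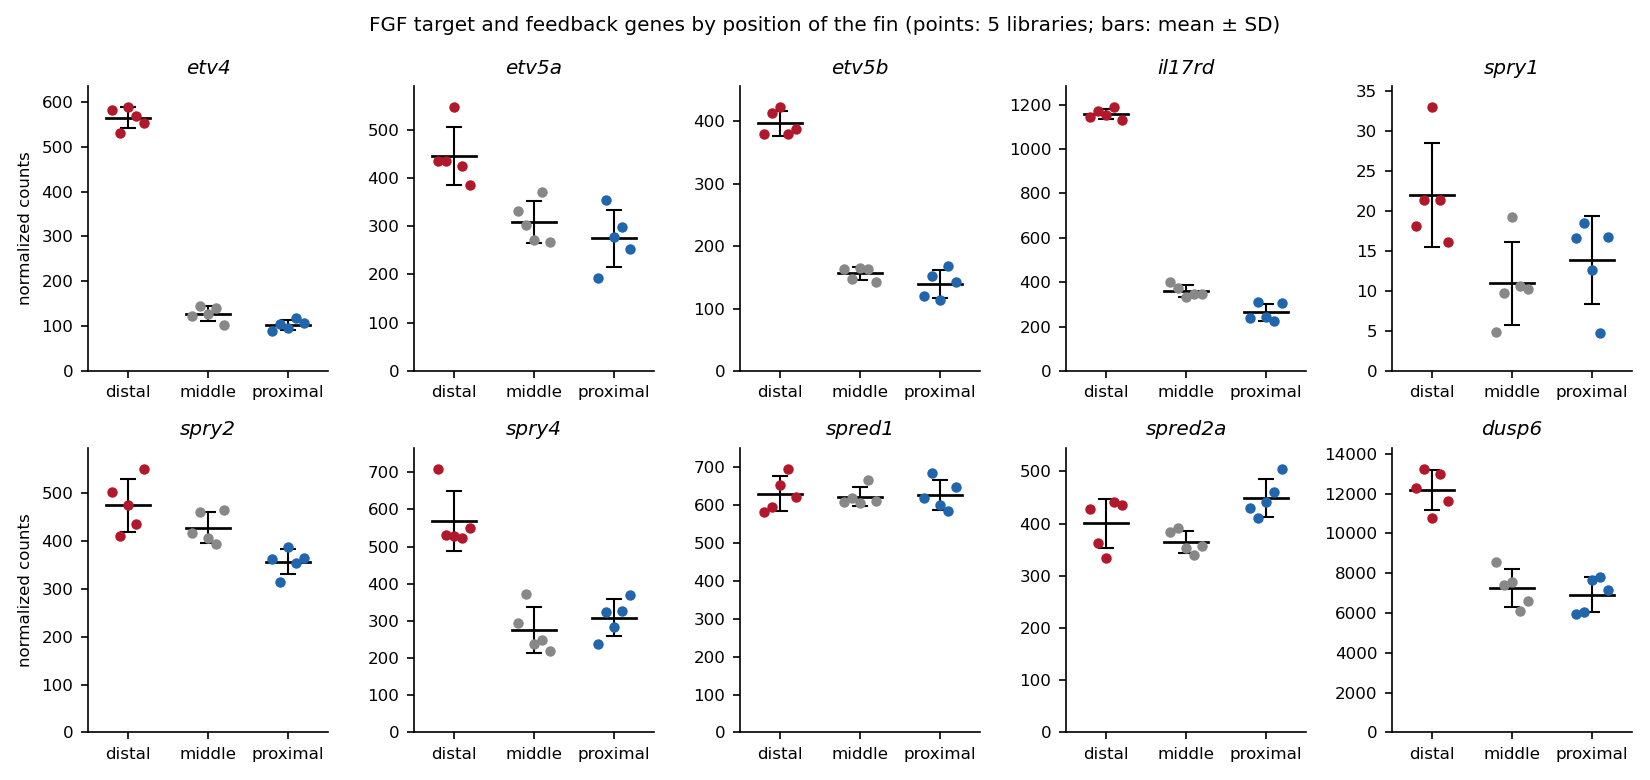
Normalized counts of the 10 genes (vertical axes, each starting at 0) in distal, middle and proximal fin; points are the 5 libraries of a position, horizontal lines the mean and bars ± SD. The distal libraries of *etv4*, *etv5a*, *etv5b*, *il17rd*, *spry4* and *dusp6* lie above every middle and proximal library, while those of *spred1* are spread over the same levels at all 3 positions.

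The ETS factors of the Pea3 group, Etv4 and the paralogs Etv5a and Etv5b, are activators of transcription downstream of ERK. *etv4* (ENSDARG00000018303) had 583, 532, 588.5, 569.6 and 553 normalized counts in the distal libraries, against 123, 144, 128, 140.4 and 103 in the middle and 88.9, 104, 94.8, 119 and 107 in the proximal libraries. The lowest distal library lay far above the highest middle library, while the middle and proximal libraries overlapped. The mean was 565 ± 23.1 in distal, 128 ± 16.3 in middle and 103 ± 11.6 in proximal fin (SD, n = 5 each). By the authors' deposited table *etv4* rose 5.50-fold in distal over proximal fin (DESeq adjusted p = 5.54e-70) and 4.40-fold in distal over middle fin (adjusted p = 8.16e-59). In the same table of the authors the middle over proximal fold was 1.24 (adjusted p = 0.301). A larger rise than that of *etv4* was found for 133 of the 16430 genes whose mean reached 20 in the distal and proximal table.

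*etv5b* (ENSDARG00000044511) had 380.1, 413, 423, 379.7 and 388 normalized counts in the distal libraries, against 163, 148, 166, 162.5 and 143 in the middle and 120.2, 152, 114, 169 and 143 in the proximal libraries. Again the distal libraries stood apart, and the other positions overlapped. *etv5b* rose 2.84-fold in distal over proximal fin (adjusted p = 5.23e-27) and 2.52-fold in distal over middle fin (adjusted p = 6.8e-23) in the authors' deposited table, and its middle to proximal fold was 1.12 (adjusted p = 0.706).

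*etv5a* (ENSDARG00000069763) had 434.4, 434.2, 547, 424.5 and 385 normalized counts in the distal libraries, against 331, 303, 270.5, 371 and 268 in the middle and 192.5, 354, 277, 298 and 253 in the proximal libraries. Every distal library was above every other library, by a narrow margin: the lowest distal value was 385 and the highest middle value 371. Its rise in the authors' deposited table was 1.62-fold in distal over proximal fin (adjusted p = 4.34e-05) and 1.43-fold in distal over middle fin (adjusted p = 0.000444). The authors' middle over proximal fold was 1.13 (adjusted p = 0.741).

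The paralogs thus differed in the size of their rise. The log2 ratio of *etv5b* to *etv5a* within a library averaged -0.16 ± 0.14 in distal and -0.96 ± 0.27 in proximal fin (SD, n = 5 each), and the libraries of the positions did not overlap. The difference of 0.80 had p = 0.00794 in an exact two-sided permutation test, the smallest p that 5 against 5 libraries allow, and 0.0238 after Benjamini-Hochberg adjustment over the 12 gene pairs computed. These pairs were chosen after the values had been seen.

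Il17rd is a transmembrane protein that holds back FGF signalling at the membrane. *il17rd* (ENSDARG00000098359) had 1144, 1170.2, 1152, 1189 and 1130.3 normalized counts in the distal libraries, against 400.4, 374, 335, 348 and 345 in the middle and 238.5, 309, 245, 227 and 305 in the proximal libraries. No libraries of different positions overlapped, and the order was distal over middle over proximal. The distal libraries varied little, with a mean of 1157 ± 23.1 against 360.4 ± 26.5 in middle and 265 ± 39.0 in proximal fin (SD, n = 5 each). In the authors' deposited table the fold was 4.37 in distal over proximal fin (adjusted p = 7.36e-67), 1.36 in middle over proximal fin (adjusted p = 0.00816) and 3.19 in distal over middle fin (adjusted p = 5.91e-46). *il17rd* was also the only 1 of the 10 genes in the authors' deposited table of 1144 genes that change monotonically along the fin, where its score of 81.3 ranked 34th among the 631 genes with a positive score.

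Sprouty proteins are inducible inhibitors that act between the receptor and ERK. *spry4* (ENSDARG00000068732) had 709.5, 529.6, 529, 524 and 551 normalized counts in the distal libraries, against 294, 373, 238, 248 and 218 in the middle and 237.5, 323.5, 283, 327 and 370.5 in the proximal libraries. All distal libraries lay above all others, and 1 distal library stood above the other 4. The authors' deposited table gives a 1.84-fold rise in distal over proximal fin (adjusted p = 6.67e-09) and a 2.06-fold rise in distal over middle fin (adjusted p = 6.9e-10). The middle mean, 274 ± 61.8, was below the proximal mean, 308 ± 50.2 (SD, n = 5 each), with overlapping libraries and an authors' adjusted p of 0.737.

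*spry2* (ENSDARG00000078308) had 503, 412, 475, 435 and 552 normalized counts in the distal libraries, against 418, 460.1, 406, 393 and 466 in the middle and 364, 316, 388, 355 and 365 in the proximal libraries. Here the proximal libraries were the ones below all others, and the distal and middle libraries overlapped. The margin was narrow: the highest proximal value was 388 and the lowest middle value 393. In the authors' deposited table *spry2* rose 1.33-fold in distal over proximal fin (adjusted p = 0.00278), with a log2 fold of 0.26 in middle over proximal fin (adjusted p = 0.205) and a log2 fold of 0.14 in distal over middle fin (adjusted p = 0.422). The log2 ratio of *spry4* to *spry2* was 0.48 higher in distal than in proximal fin, with overlapping libraries (exact two-sided permutation p = 0.0238, 0.0476 after adjustment over the 12 pairs). With 1 library left out, that adjusted p ran from 0.0635 to 0.0952 in every case but 1: it was 0.0381 without distal library 5. In the cases from 0.0635 to 0.0952 the log2 difference lay between 0.38 and 0.55. With 1 library fewer the smallest p that the test allows is larger, which by itself raises these p-values. This pair, too, was chosen after the values had been seen.

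*spry1* (ENSDARG00000103985) was counted from few reads, 15 to 30 per library in distal, 5 to 20 in middle and 5 to 19 in proximal fin. Its normalized counts were 18.1, 21.32, 32.9, 21.33 and 16.1 in the distal libraries, against 4.87, 9.71, 19.2, 10.6 and 10.3 in the middle and 16.6, 18.5, 12.6, 4.76 and 16.7 in the proximal libraries. The positions overlapped in every comparison. In the authors' deposited table *spry1* was called higher in distal than in middle fin (1.99-fold, adjusted p = 0.0192), while the distal over proximal fold of 1.59 was not called (adjusted p = 0.119). The distal over middle call was lost in limma, a linear model fitted over all genes, without the distal library at 32.9 (adjusted p = 0.0704) or without the middle library at 4.87 (adjusted p = 0.0826).

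Spred proteins carry a Sprouty-related domain and hold back the activation of Raf by Ras. *spred1* (ENSDARG00000041449) ranged from 583 to 696.5 normalized counts in distal, from 605 to 666 in middle and from 585 to 684 in proximal fin. Its means of 629.8 ± 46.0 in distal, 622 ± 25.4 in middle and 627 ± 39.3 in proximal fin (SD, n = 5 each) lay well within each other's spread. The limma log2 difference of distal and proximal fin was 0.01 ± 0.07 (SE), and the authors' deposited fold was 1.00 (adjusted p = 0.986).

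*spred2a* (ENSDARG00000052435) had 427, 363.5, 335, 440.5 and 435 normalized counts in the distal libraries, against 384, 391, 352, 340.4 and 358 in the middle and 430.1, 409.9, 441, 460.0 and 505 in the proximal libraries. The middle libraries all lay below the proximal ones, and the distal libraries overlapped both. In the authors' deposited table the middle to proximal comparison gave a 1.23-fold lower level in middle fin with an adjusted p of 0.122, so it was not called. The limma fit on the recovered counts did call it, with a log2 difference of -0.30 ± 0.09 (SE, adjusted p = 0.0241). Of the 18871 genes in that fit, 13.9% were called and 6.94% called lower. In RefSeq's annotation of a later zebrafish assembly *spred2a* overlaps the homeobox gene *meis1a*, and the strand setting of the authors' counting is not given in the sources used here, so reads from the shared stretch cannot be told apart. *meis1a* had 34.8 to 55.5 normalized counts in distal, 114 to 145 in middle and 164 to 189 in proximal fin, and in the authors' deposited table it fell 4.04-fold in distal against proximal fin (adjusted p = 3.43e-29). Its part in the values of *spred2a* was not tested. *etv4*, *etv5b* and *il17rd* each overlap 1 long non-coding RNA gene in that annotation, and the other 6 genes overlap none. Reads from these shared stretches cannot be told apart either, and their part in the values of *etv4*, *etv5b* and *il17rd* was not tested.

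The paralog *spred2b*, which was not among the 10 genes, averaged 1159 ± 65.4 normalized counts in distal, 670.6 ± 55.2 in middle and 618.5 ± 24.6 in proximal fin (SD, n = 5 each). It rose 1.87-fold in distal over proximal fin in the authors' deposited table (adjusted p = 3.96e-14). The log2 ratio of *spred2b* to *spred2a* averaged 1.54 ± 0.26 in distal and 0.46 ± 0.11 in proximal fin (SD, n = 5 each). The libraries did not overlap, and the exact two-sided permutation p was 0.00794 (0.0238 after adjustment over the 12 pairs). *spred2b* and this pair were chosen after the values had been seen, so the p describes a contrast already known from these data.

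Dusp6 is a phosphatase that removes the activating phosphates from ERK. *dusp6* (ENSDARG00000070914) had 12295, 13254, 10785, 12966 and 11639 normalized counts in the distal libraries, against 8559.9, 7421, 7578, 6103 and 6619.8 in the middle and 5960.2, 6066, 7649, 7799 and 7148 in the proximal libraries. The distal libraries stood above all others, and the middle and proximal libraries covered much the same range. In the authors' deposited table *dusp6* rose 1.76-fold in distal over proximal fin (adjusted p = 2.43e-13) and 1.67-fold in distal over middle fin (adjusted p = 1.34e-11). For middle over proximal fin the authors' fold was 1.05 (adjusted p = 0.909).

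Counted over libraries rather than by the fitted test, 7 of the 10 genes had distal libraries that all lay above all proximal ones, the same 7 that were called. Such a separation was found for 15.7% of all genes with 15 libraries. Between distal and middle fin it held for 6 of the 10 genes, against 12.2% of all genes, with *spry1* called but overlapping. Between middle and proximal fin the middle libraries were higher without overlap for *il17rd* and *spry2*, against 4.45% of all genes, and lower without overlap for *spred2a*, against 4.80% of all genes. Each gene with separated libraries had p = 0.00794 in an exact two-sided permutation test, which was reached in 16 of the 30 such tests. Full separation of 5 against 5 libraries fixes that p, the smallest possible, so it adds nothing to the counts above.

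**Figure D2:**
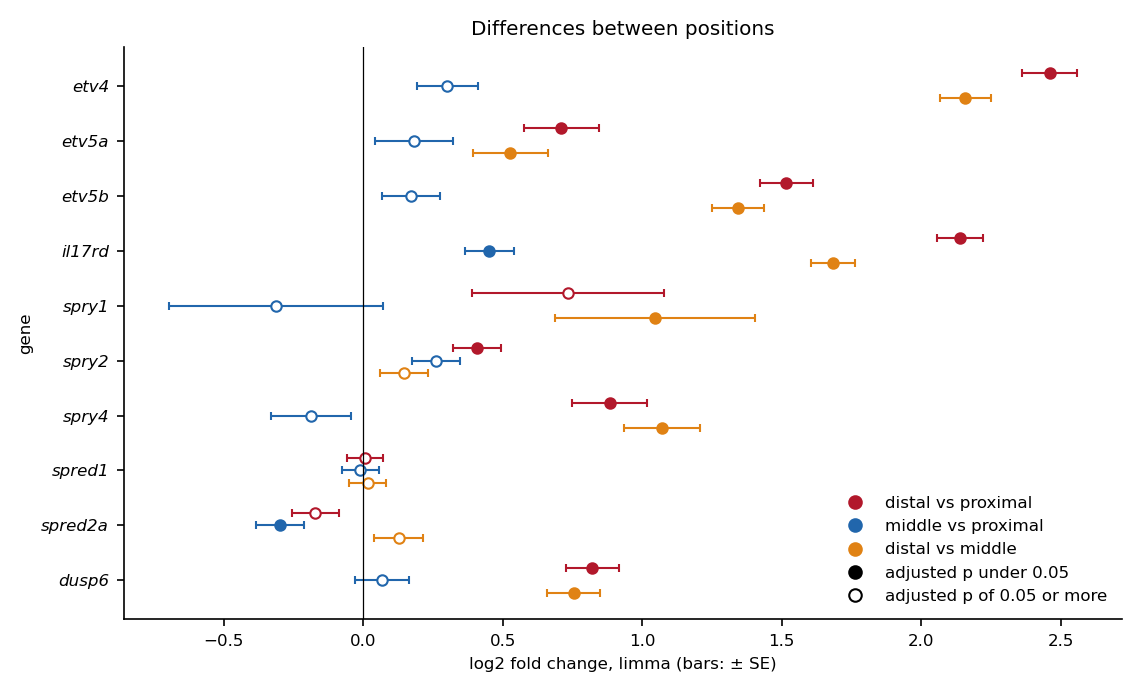
Differences between positions for the 10 genes, as log2 fold changes from limma on the recovered counts (horizontal axis; bars ± SE), with filled points for an adjusted p under 0.05. *etv4*, *il17rd* and *etv5b* lie beyond 1 on the log2 scale in both distal comparisons, and *spred2a* is the 1 gene with a filled point below 0.

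No distance between the sampled positions is given here, so a step between them is not a rate along the fin. It was asked whether the 2 steps differed in log2 size. The question was put to limma as a difference of steps, the log2 fold of distal over middle fin minus that of middle over proximal fin, with p adjusted over 18871 genes. It was positive and passed the test for 5 of the 10 genes, against 11.5% of all genes called and 5.97% called positive, and no member was called negative, against 5.56%. The step difference was 1.86 ± 0.18 for *etv4* (SE, adjusted p = 1.46e-06), 1.23 ± 0.15 for *il17rd* (adjusted p = 1.34e-05) and 1.17 ± 0.17 for *etv5b* (adjusted p = 0.000137). In the same limma fit it was, for *spry4*, 1.25 ± 0.24 (adjusted p = 0.0019) and for *dusp6* 0.69 ± 0.17 (adjusted p = 0.0101).

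Put as a share of the whole log2 difference of distal and proximal fin, the step from middle to distal made up 91.7% for *dusp6*, 89.1% for *etv5b*, 87.3% for *etv4* and 79.1% for *il17rd*. For *etv5a* it made up 75.8%, with a step difference of 0.34 ± 0.24 that did not pass the test (SE, adjusted p = 0.395). *spry2* had its larger step between proximal and middle fin, and the outer step made up 36.3%. The difference of its steps, -0.12 ± 0.15, was within its error (SE, adjusted p = 0.689). The values for *spry1* (1.36 ± 0.66), *spred2a* (0.43 ± 0.15) and *spred1* (0.03 ± 0.11) did not pass the test either, with adjusted p of 0.212, 0.0748 and 0.92. Over the 10 genes the median step difference was 0.93, against -0.01 over all genes fitted.

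**Figure D3:**
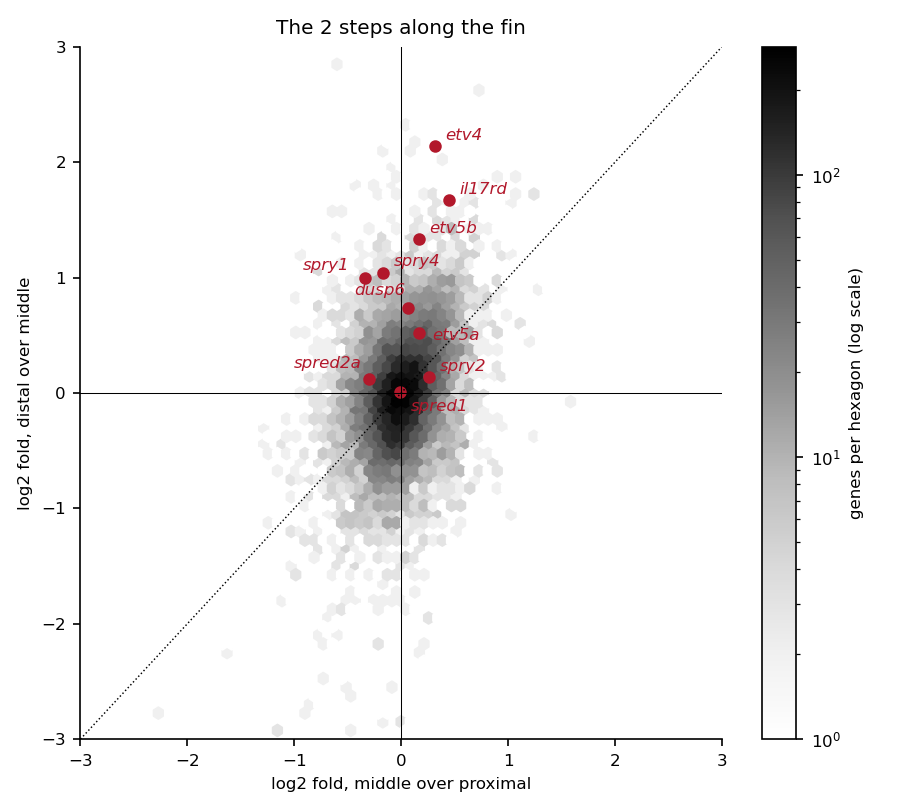
Log2 fold of middle over proximal fin (horizontal axis) against log2 fold of distal over middle fin (vertical axis) for genes with a mean of at least 20, shaded by the number of genes per hexagon, with the 10 genes as labelled points and a dotted line where both steps are equal. *etv4*, *il17rd* and *etv5b* lie far above the line, *spred1* at the origin and *spry2* just below the line; 132 genes fall outside the axes.

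Ordered by their rise in distal over proximal fin, the genes ran *etv4*, *il17rd*, *etv5b*, *spry4*, *dusp6*, *etv5a*, *spry1*, *spry2*, *spred1* and *spred2a*. Because the order rests on these same rises, a positive difference between neighbours was largely given in advance, and the ratios only describe its size. The neighbours *il17rd* and *etv5b*, and *etv5b* and *spry4*, had log2 ratios within a library that did not overlap between distal and proximal fin. Their distal minus proximal differences were 0.62 and 0.63. For *spry4* over *dusp6* the difference was 0.07, and for *dusp6* over *etv5a* it was 0.11, both with overlapping libraries and SDs of 0.22 to 0.33 within a position. *spry4* and *etv5a* were not compared with each other. *etv4* over *il17rd* gave 0.32, also with overlapping libraries. The median log2 fold of the 10 genes was 0.76 in distal over proximal fin, against -0.04 over all genes, 0.12 in middle over proximal fin, against -0.01, and 0.87 in distal over middle fin, against -0.02.

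After each gene's log2 values were centred on its position mean, so that the difference between positions plays no part, the 45 pairs of members had a median Pearson r of 0.12 over the 15 libraries, and 27 of the 45 were positive. Over all pairs of 16489 genes the median was 0.00, with quartiles of -0.26 and 0.26. The highest value was 0.65, for *etv4* and *spry4*. The pairs of ETS factors had 0.62 for *etv4* and *etv5b*, 0.56 for *etv5a* and *etv5b* and 0.55 for *etv4* and *etv5a*. The lowest was -0.54, for the sparsely counted *spry1* and *dusp6*. These correlations share libraries and their depth and are given as a description.

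The genes whose pattern over the 15 libraries was most like the mean of the 10 scaled members, among 16479 other genes with a mean of at least 20, were *vsg1* (Pearson r = 0.981), *rbms1a* (0.978), *pmepa1* (0.977), *si:ch211-182p11.1* (0.977) and *wnt5a* (0.975). Wnt5a is a secreted Wnt ligand, and in mammals Pmepa1 is induced by TGF-β and limits its signalling. *wnt5a* averaged 1235 ± 91.7 normalized counts in distal, 121 ± 26.2 in middle and 84.6 ± 15.1 in proximal fin (SD, n = 5 each). *pmepa1* averaged 461 ± 60.6 in distal, 165 ± 16.9 in middle and 142 ± 19.7 in proximal fin. Both share the large step between middle and distal fin. The members' own correlations with that mean ran from 0.973 for *etv4*, 0.967 for *il17rd* and 0.954 for *etv5b* down to 0.222 for *spred1* and -0.008 for *spred2a*. Each member is itself part of that mean, which raises its r, so these values cannot be set against those of the other genes.

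Upstream of these genes, 10 of the 19 measured FGF ligands of a list of 24 were higher in distal than in proximal fin and none was lower, against 17.9% higher and 18.1% lower over all genes, with a median log2 fold of 1.23. Between distal and middle fin 11 of 18 were higher and none lower, against 13.3% higher and 12.9% lower over all genes. Between middle and proximal fin none of 15 was called in either direction, against 3.51% higher and 3.80% lower. The 15 leave out *fgf23*, *fgf22* and *fgf8a*, which were called higher in both distal comparisons. Their means in middle and proximal fin were no more than 1.152 normalized counts. They were measured through their distal reads and could only be called higher there. *fgf24* averaged 441 ± 89.4 normalized counts in distal, 132 ± 42.7 in middle and 92.8 ± 25.2 in proximal fin (SD, n = 5 each), a 4.76-fold rise of distal over proximal fin in the authors' deposited table (adjusted p = 1.66e-19). *fgf20a*, the ligand that zebrafish need to start fin regeneration, averaged 39.8 ± 8.40 in distal, 2.94 ± 2.33 in middle and 6.11 ± 3.27 in proximal fin and rose 6.52-fold in the authors' deposited table (adjusted p = 1.52e-14). *fgf23* averaged 20.35 ± 9.54 in distal fin and had no read in any proximal library. Against a floor of 3 reads over the proximal libraries, 0.576 normalized counts, it was at least 35.4-fold higher in distal fin.

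Among the FGF receptors and binding proteins, 3 of 11 measured were higher and 3 lower in distal than in proximal fin, against 17.9% higher and 18.1% lower over all genes. The 11 are gene IDs, with *fgfbp1b* present under 2 of them, neither called in any comparison. The receptor gene *fgfr1a* averaged 4029 ± 103 normalized counts in distal, 2424 ± 109 in middle and 2264 ± 67.8 in proximal fin and rose 1.78-fold of distal over proximal fin in the authors' deposited table (adjusted p = 1.85e-13). *fgfr4* rose 1.71-fold by the authors' table (adjusted p = 5.36e-11). The other way, *fgfbp2a*, a gene for a secreted FGF binding protein, averaged 1396 ± 188 in distal, 4431 ± 353 in middle and 7146 ± 1096 in proximal fin, a 5.12-fold fall in distal against proximal fin by the authors' values (adjusted p = 3.88e-38). *fgfrl1b*, whose product is a receptor without a kinase domain, fell 1.80-fold there, also in the authors' table (adjusted p = 6.24e-06). Between middle and proximal fin 2 of the 11 were lower and none higher, against 3.80% lower and 3.51% higher over all genes. Between distal and middle fin 4 were higher and 2 lower, against 13.3% higher and 12.9% lower.

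Of the adaptors and members of the Ras-ERK cascade, 3 of 26 were higher and 3 lower in distal than in proximal fin, with a median log2 fold of -0.03. Both are smaller shares than the 17.9% higher and 18.1% lower over all genes. The higher ones included *map2k1*, which encodes the ERK kinase MEK1, at 588 ± 55.2 normalized counts in distal and 345 ± 14.8 in proximal fin (1.71-fold in the authors' deposited table, adjusted p = 3.23e-09) and *kras* (1.64-fold, adjusted p = 1.25e-09). *ptpn11b*, a gene for a Shp2 phosphatase that signals below the receptors, fell 2.33-fold in the authors' deposited table (adjusted p = 1.04e-12), and the Ras exchange factor gene *sos1* fell 1.25-fold (adjusted p = 0.0303). Between middle and proximal fin 1 of the 26 was lower and none higher, against 3.80% lower and 3.51% higher over all genes. Between distal and middle fin 2 were higher and 1 lower, against 13.3% higher and 12.9% lower.

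Of 15 measured relatives of the 10 genes, other Etv, Spred and Dusp genes, 7 were higher and 1 lower in distal than in proximal fin, against the same shares over all genes, with a median log2 fold of 0.43. *dusp5*, which encodes a nuclear ERK phosphatase, averaged 1210.4 ± 223 normalized counts in distal, 605 ± 72.1 in middle and 487 ± 98.3 in proximal fin and rose 2.49-fold of distal over proximal fin in the authors' deposited table (adjusted p = 1.31e-10). *dusp10*, for a phosphatase of the stress-activated kinases p38 and JNK, fell 1.83-fold in the authors' deposited table (adjusted p = 0.00708). Between distal and middle fin 3 of 14 were higher and none lower, against 13.3% higher and 12.9% lower over all genes. None of 15 was called between middle and proximal fin, against 7.31% of all genes.

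Immediate early genes respond to ERK and many other signals within minutes to hours. In distal against proximal fin 5 of 16 measured were higher, 3 lower and 8 not called, against 17.9% higher and 18.1% lower over all genes, with a median log2 fold of 0.20. *fosb*, which encodes a component of the AP-1 transcription factor, averaged 5003 ± 1527 normalized counts in distal, 1748.5 ± 629 in middle and 1314 ± 269.7 in proximal fin and rose 3.81-fold of distal over proximal fin in the authors' deposited table (adjusted p = 7.37e-08), and *fosl1a*, for another AP-1 component, rose 2.07-fold (adjusted p = 1.55e-05). The zinc finger factor gene *egr2b* fell 2.68-fold in the same deposited comparison of the authors (adjusted p = 7.25e-09) and *mycb*, a Myc gene, 1.86-fold (adjusted p = 1.76e-06). Between distal and middle fin 5 were higher and 2 lower, against 13.3% higher and 12.9% lower over all genes. None of 16 was called between middle and proximal fin, against 7.31% of all genes.

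**Figure D4:**
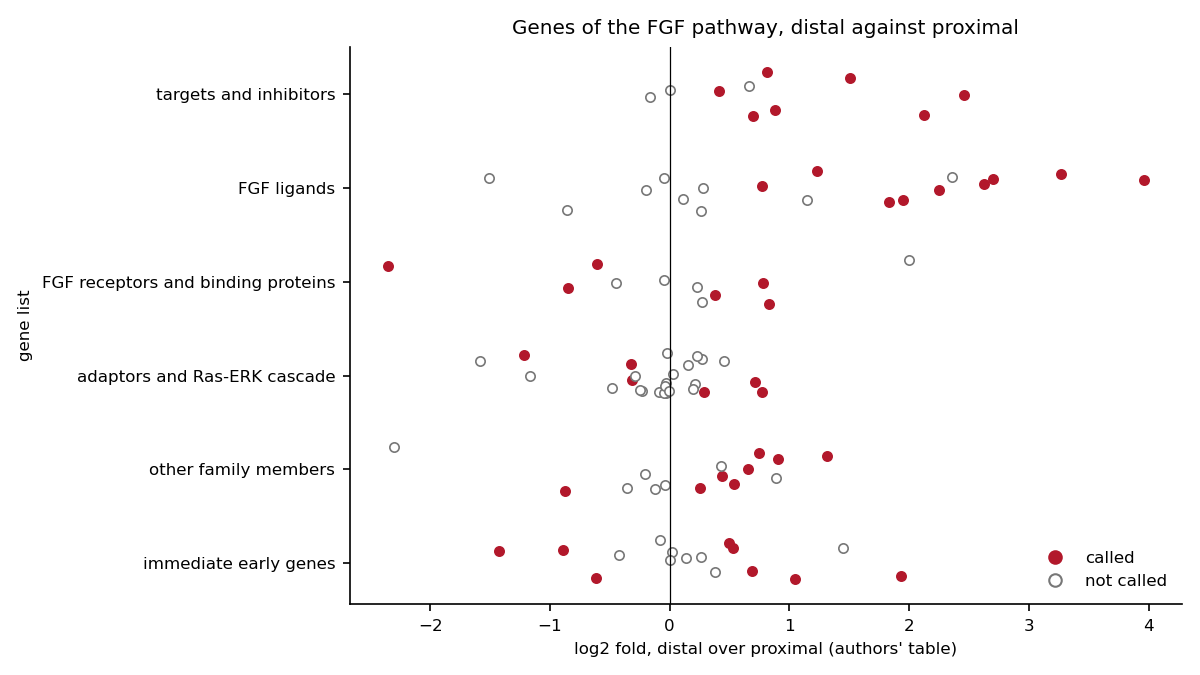
Log2 fold of distal over proximal fin in the authors' deposited table (horizontal axis) for the 10 genes and 5 lists of pathway genes, 1 point per measured gene, filled where the adjusted p was under 0.05. The filled FGF ligands all lie to the right of 0 (*fgf23*, with no proximal read, is not drawn), while filled points of the receptors and of the Ras-ERK cascade lie on both sides.

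Marker genes of 8 cell types were also read, and markers of the same type did not always change in the same direction. Cell numbers and RNA per cell cannot be told apart in these values. The summed normalized counts of the 6 ray mesenchyme markers ran from 68668 to 84201 in distal fin. They ran from 61185 to 77107 in middle and 46315 to 59542 in proximal fin. Most of that sum came from the collagen genes *col1a2*, *col1a1a* and *col5a1*, with distal means of 37324, 24911 and 11676. Of the 6 markers, 5 were called higher and 1 lower in distal than in proximal fin. Over all genes 17.9% were called higher and 18.1% lower, which applies to the counts of the other cell types as well. The 6 epidermal markers had a summed mean of 268801 in distal, 378677 in middle and 351838 in proximal fin, with 4 called higher and 1 lower. The one called lower, the keratin gene *krt5*, averaged 110384 in distal, 251059 in middle and 238876 in proximal fin, a 2.16-fold fall of distal against proximal fin in the authors' deposited table (adjusted p = 4.08e-08). Counts per library had no single solution for *krt5* and *krt4*, and without these 2 genes the other 4 summed to 48073 to 54332 in distal, 39342 to 45598 in middle and 32332 to 38521 in proximal fin. Osteoblast markers summed to 4938 to 7238.0 in distal, 1831 to 3335 in middle and 2215 to 5764 in proximal fin, with 2 of 5 called higher and 1 lower. Most of that sum was *col10a1a*, which averaged 5082 in distal, 1675 in middle and 2658 in proximal fin. The median log2 fold of the 5 markers in distal over proximal fin was -0.025. Melanophore markers summed to 3555 to 5140 in distal, 1409 to 2411 in middle and 1077 to 1491 in proximal fin, with 3 of 3 called higher.

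The 4 leukocyte markers summed to 1071 to 1616 in distal, 1631 to 2407 in middle and 1513 to 2246 in proximal fin. In distal against proximal fin 3 were called lower, against 18.1% lower and 17.9% higher over all genes. The 3 glial markers summed to 560 to 727 in distal, 742 to 870.0 in middle and 1004 to 1204 in proximal fin, with 2 called lower and 1 higher. Endothelial markers summed to 1649 to 1789 in distal, 1284 to 1423 in middle and 1248 to 1713 in proximal fin, with 2 of 4 called higher and 1 lower. Most of that sum was *kdrl*, which averaged 961.8 in distal and 924.4 in proximal fin and was not called. The one called lower, *cdh5*, averaged 3.24 in distal, 1.52 in middle and 35.4 in proximal fin. The skeletal muscle markers, 4 of 5 of which were measured between distal and proximal fin, summed to 28.1 to 56.7 in distal, 88.5 to 279.6 in middle and 50.5 to 183 in proximal fin, with 1 called lower. That marker, *ckma*, averaged 6.73 in distal, 117.1 in middle and 73.7 in proximal fin. No marker in these sums had a mean of 0 at any position, though the muscle markers *mylpfa* and *actc1b* were at 0 in single libraries. Markers of epidermis, ray mesenchyme and bone, the tissues of a fin, were among those detected. The part of these differences in the values of the 10 genes was not tested.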

How the data were processed

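Total RNA of fin regions was extracted with TRIzol, depleted of ribosomal RNA and sequenced, per the labels. Per the submitters' processing notes, the authors used TopHat2 2.0.13, HTSeq and DESeq with the GRCz10 genome. No source used here gives their roles, the gene annotation, the strand setting or the filters. The authors deposited 3 pairwise tables. The signal columns of these deposited tables hold the mean normalized count of a position. The authors' ratio column is the fold of these means, the deposited log2 column its log2, and the p-value columns the authors' DESeq p-value and its Benjamini-Hochberg adjustment. The authors' monotonic table adds a deposited score and signal columns that are headed rpm but hold means normalized over all 3 positions.

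Counts per library were recovered by lattice reduction: each 15-digit mean comes from 5 whole counts over 5 size factors, which few-read genes reveal. All 10 genes had a single solution, as had 23457 of 23495 genes with all 15 libraries. Held-out means of the monotonic table, 569 to 570 genes per position, were met within a relative tolerance of 1e-13. Whether the replicates came from separate fish cannot be read beyond the pooling in the labels. Precision rests on the 5 libraries per position, and sampling error of low counts is widest for *spry1*.

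A gene was called at an adjusted p under 0.05 in the authors' table. limma 3.58.1 (voom) was fitted to all 15 libraries with a minimum of 10 reads in at least 5 libraries. The fit and the recovery were also run on data simulated from the recovered means and size factors, with 1 setting of scatter for every gene. Such data cannot show the error rates in the real libraries. Exact permutation tests used log2(normalized count + 1). Markers, lists and members were chosen with earlier results of these data known. All 10 members are named; of each pathway list, the 2 genes with the largest rise and the 2 with the largest fall in distal against proximal fin, among called genes with a mean of at least 20. *spred2b* and the gene pairs were looked at after the values were seen. *fgf23*, *fgf22*, *fgf8a*, *fgfbp1b*, *fgfr2*, *fgfr1b* and *meis1a* are named outside the rule. Alternatives were the limma fit with other scalings, filters and thresholds, and leaving out each library. The tables named 21218 IDs, and 1372 others were named from the reference list.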

Additional observations from a re-analysis of the deposited data

Results flagged for a closer look

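In 30 groups of 5 libraries, 10 genes at 3 positions, 2 held a library far from the other 4 by Dixon's criterion, which chance gives in about 1 of 20 groups. *spry4* had 709.5 normalized counts in 1 distal library, and the nearest other distal library had 551. The gap was 0.853 of the range. Without that library the limma log2 fold of *spry4* was 0.80 in distal over proximal fin (adjusted p = 7.74e-05) and 0.99 in distal over middle fin (adjusted p = 1.87e-05).

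*spred1* had 666.4 normalized counts in 1 middle library, and the nearest other middle library had 619. The gap was 0.771 of the range. Without it the log2 difference of *spred1* in middle against proximal fin was -0.03 (adjusted p = 0.799).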

How the results depend on the processing

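The count of genes called between distal and proximal fin was 7 under 22 of 23 alternatives and 8 under library totals as the scale, where *spred2a* was called lower. Between distal and middle fin it was 7 under 20 and 6 under 3 of 23 alternatives: at an adjusted p under 0.01, without distal library 3 and without middle library 1, each of which ended the call of *spry1*. Between middle and proximal fin the authors' table called 1 gene. limma called 2, also with no filter and with library totals as the scale, and 3 with TMM, with positions at equal totals and with only the 2 positions fitted. Leaving out 1 library in turn gave 1 to 3 calls there, 6 to 7 between distal and middle fin, 7 between distal and proximal fin and 5 to 6 step differences. The gene added by limma was *spred2a*, or *spry2* or *etv4* under some settings, all at small log2 differences. The sixth step difference was that of *spred2a* (0.488, adjusted p = 0.0310), without distal library 3. No fold or step difference of a member that was called changed sign.

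No paired analysis was possible because the recovered libraries carry no replicate number of the labels. Sequences of the genes were not used here. Library numbers, depth per library and the normalization were inferred from the means, and no alternative alignment or strand setting was tried. *spry1* had the fewest reads of the 10 genes, and how far the reads per gene limit the other members was not tested.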
